A study of Rattus norvegicus with 6 samples.

Results

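This account covers 44 genes of the cell cycle in liver endothelial cells, namely cyclins and their kinases, DNA replication enzymes, regulators of mitosis, and cyclin-dependent kinase (CDK) inhibitors with other growth arrest genes. They were matched by symbol to the probe sets of an Affymetrix rat 230A expression array, counting a probe set only where the platform annotation gives it no other gene. By this rule 37 of the 44 genes had at least 1 probe set and together held 48 of the 15866 probe sets on the array. Cdk2, Rrm2, Ccna2, Nusap1, Prc1, Bub1 and Btg2 had none, so their expression was not analysed here. Where a gene had several probe sets, the one with the highest mean over all arrays stands for it.

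The arrays came from 3 preparations of liver endothelial cells of control Wistar rats and 3 of cirrhotic Wistar rats, labelled as adult males. Both groups were prepared alike, by perfusing the liver with collagenase, density centrifugation and binding to antibody-coated magnetic beads. The cirrhosis protocol, the antibody, the sex and age of the controls and the number of rats behind an array are unstated in these sources, and nothing says that preparations of a group came from separate animals. The p-values therefore measure the spread between these arrays, which may be technical. Values are the deposited signals, in the arbitrary units of the array, and the first control array carries no number in its label and is called control array 1.

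A cell that enters the cycle makes D-type cyclins, which activate Cdk4, and then cyclin E. Together they release E2F transcription factors, which switch on genes for DNA replication. Later, B-type cyclins with Cdk1 drive mitosis, and the anaphase-promoting complex with Cdc20 ends it. CDK inhibitors of the Cip/Kip and INK4 families hold these kinases back. In an uninjured adult liver, sinusoidal endothelium is mostly out of the cycle, whereas regenerating and injured liver holds dividing cells of several kinds.

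Among the tested members, 6 of 9 replication genes and 6 of 10 mitosis genes rose in cells of cirrhotic livers, no D-type cyclin passed the test, and the CDK inhibitors went in both directions. Of all tested probe sets 12.3% rose and 13.2% fell. Cdk1, the kinase of mitotic entry, rose by 1.49 on the log2(signal + 16) scale (SE 0.27, n = 3 per group), and Mcm6, a subunit of the replicative helicase, rose by 0.92 (SE 0.18). Cdkn1c, the Cip/Kip inhibitor p57, fell by 2.19 (SE 0.16). All differences below are cirrhotic minus control on this log2 scale, in which the added 16 shrinks the difference of a dim probe set. In such bulk samples, more cells of a type and more RNA per cell cannot be told apart.

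Of the 37 genes, 30 were bright enough to be tested, since probe sets in the lowest 40% by mean over the 6 arrays were left out, a threshold near a signal of 127. By limma's test, adjusted by the Benjamini-Hochberg method over 9519 probe sets, 16 of the 30 genes rose (53.3%) and 1 fell, at an adjusted p under 0.05. Of all tested probe sets 25.4% passed, with 12.3% higher and 13.2% lower. The 30 genes had a median difference of 0.69, against -0.02 over all tested probe sets. Ccnb2, Top2a and Cdkn3 had all 3 control signals under the threshold and passed the filter through their cirrhotic signals, so the count of 16 is a description. Tested without any filter, 12 of the 37 genes rose (32.4%) and 1 fell, while 8.06% of all 15866 probe sets rose and 7.42% fell. The groups did not overlap for 20 of the 30 genes with higher and 1 with lower cirrhotic signals, against 20.8% and 24.1% of all tested probe sets.

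**Figure D1:**
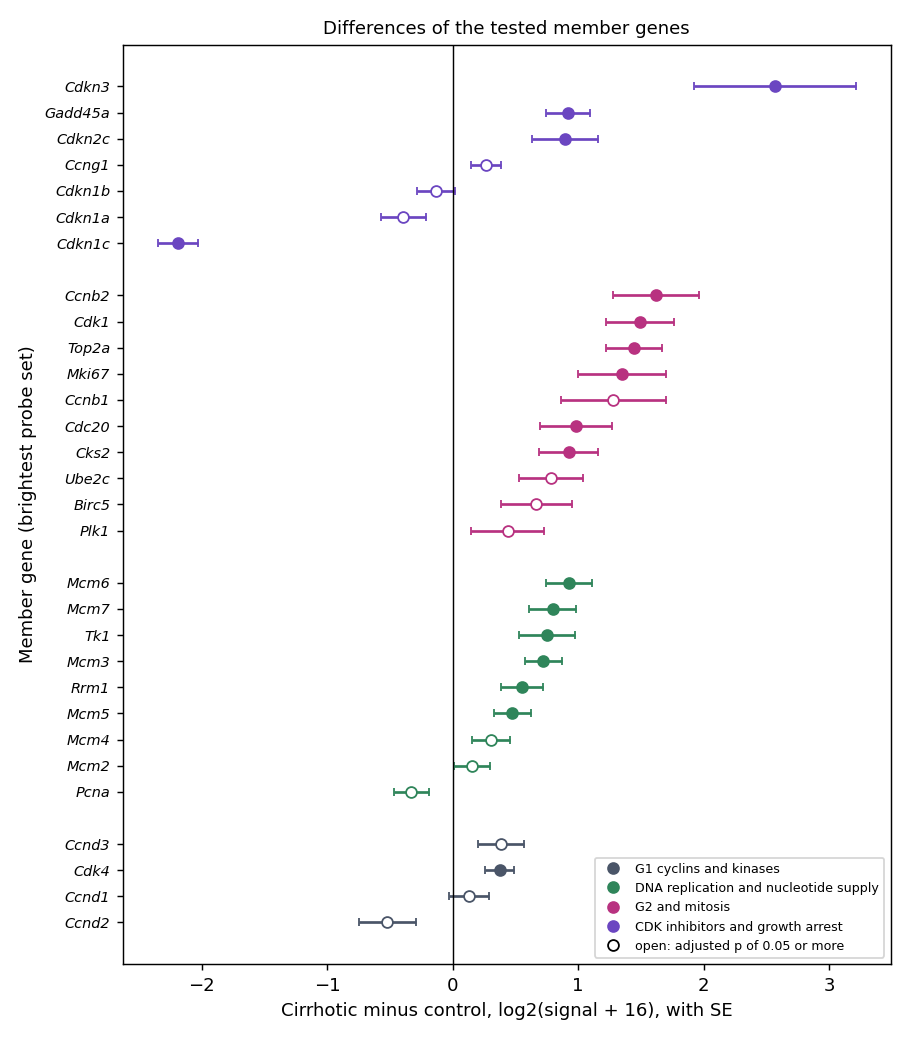
Difference between cirrhotic and control arrays for the 30 tested genes, on the log2(signal + 16) scale (horizontal axis) with its standard error, grouped by phase. Filled points passed an adjusted p of 0.05. The G2 and mitosis genes all lie to the right of 0, with Ccnb2 at 1.62, and Cdkn1c stands alone at -2.19.

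The number of calls changed with the arrays included. The count of 16 was 7 without any 1 of the control arrays, 6 without cirrhotic array 1, 10 without cirrhotic array 3 and 17 without cirrhotic array 2. Of the 17 calls in either direction, 6 were kept whichever array was left out: Mcm3, Mcm6, Cdk1, Top2a, Gadd45a and Cdkn1c.

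Among the G1 genes, 1 of 4 tested members rose, against 12.3% of all tested probe sets. Cdk4, the kinase that D-type cyclins activate, had signals of 982, 916 and 952 on control arrays 1 to 3 and of 1255, 1252 and 1198 on cirrhotic arrays 1 to 3. Every cirrhotic signal lay above every control signal, and the rise of 0.37 (SE 0.11, adjusted p = 0.0447) was small beside those of the mitosis genes. It passed narrowly: the call ended without any 1 of the 6 arrays (adjusted p between 0.0537 and 0.128) and with median centring (0.13).

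The 3 D-type cyclins, which carry growth factor signals to the cycle, did not pass. Ccnd1 read 1999, 1404 and 1889 in control and 1817, 1808 and 2112 in cirrhotic arrays, with a difference of 0.13 (SE 0.16, adjusted p = 0.589), and the groups overlapped. Its other probe sets did not pass either and had differences of 0.37 and -0.26. Ccnd2 read 2537, 1629 and 2858 in control and 1382, 1479.6 and 1945 in cirrhotic arrays, a difference of -0.52 (SE 0.23, adjusted p = 0.13). Only control array 2 overlapped with the cirrhotic range, and without it the difference was -0.76 (adjusted p = 0.0336). Ccnd3 read 705, 820.4 and 659 in control and 1125, 1023 and 748 in cirrhotic arrays, a difference of 0.38 (SE 0.18, adjusted p = 0.151). Here cirrhotic array 3 lay within the control range, and without it the difference was 0.56 (adjusted p = 0.0324). The cyclin E gene Ccne1 was too dim to be tested, with 21.7, 45.5 and 67.0 in control and 99.3, 82.6 and 91.3 in cirrhotic arrays. Its groups did not overlap, and without the filter on dim probe sets its difference of 0.89 had an adjusted p of 0.0872.

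Among the genes of DNA replication and nucleotide supply, 6 of 9 tested members rose (66.7%) and none fell (median difference 0.56), against 12.3% and 13.2% of all tested probe sets. Without the filter 3 of 10 rose (30%), against 8.06% of all probe sets. The 6 Mcm genes encode the ring-shaped helicase that unwinds DNA at replication origins. Mcm6 read 187, 185 and 258 in control and 496, 369.8 and 369.5 in cirrhotic arrays (difference 0.92, SE 0.18, adjusted p = 0.00969). Mcm3 read 212, 222 and 247 in control and 450.4, 356 and 352 in cirrhotic arrays (0.72, SE 0.15, adjusted p = 0.0104). Mcm7 read 290.5, 215 and 330.3 in control and 572, 451 and 451 in cirrhotic arrays (0.80, SE 0.19, adjusted p = 0.0177). In all 3 genes cirrhotic array 1 was highest and the other two cirrhotic arrays read nearly the same. Mcm5 read 151, 180.1 and 168 in control and 213, 261 and 240.1 in cirrhotic arrays, and its rise of 0.48 (SE 0.15) lay at the threshold (adjusted p = 0.0499).

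The remaining helicase subunits did not pass. Mcm4 read 258, 226 and 256 in control and 364, 280.1 and 286 in cirrhotic arrays, without overlap, and had a difference of 0.30 (SE 0.15, adjusted p = 0.168). Mcm2 read 300.0, 343 and 406 in control and 361, 407 and 396 in cirrhotic arrays, with overlap and a difference of 0.15 (SE 0.15, adjusted p = 0.475).

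Of the genes that supply nucleotides, Rrm1 and Tk1 passed. Rrm1, the large subunit of ribonucleotide reductase, read 199, 202 and 185 in control and 359, 240.0 and 296 in cirrhotic arrays (difference 0.56, SE 0.17, adjusted p = 0.0453). Tk1, the thymidine kinase made in S phase, read 170.4, 221 and 187 in control and 369.9, 236 and 424 in cirrhotic arrays (0.75, SE 0.22, adjusted p = 0.0414), and its dimmer probe set rose by 1.32 (SE 0.36, adjusted p = 0.0314). In both genes cirrhotic array 2 was the lowest of its group. Tyms, the thymidylate synthase, was too dim to be tested and read 44.9, 83.5 and 49.9 in control and 142, 88.6 and 180.2 in cirrhotic arrays. Its groups did not overlap, and without the filter its difference of 1.01 had an adjusted p of 0.0634.

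Pcna, the sliding clamp of DNA polymerase, did not follow the other replication genes. It read 3665, 4389.5 and 4483 in control and 3345, 3813 and 2851 in cirrhotic arrays, a difference of -0.33 (SE 0.14, adjusted p = 0.117). The groups overlapped through control array 1 and cirrhotic array 2, and Pcna was the only tested member of its group with a negative difference. Among the calls of the replication genes, that of Mcm7 ended without cirrhotic array 1 (adjusted p = 0.0715), that of Mcm5 without any 1 array (0.0654 to 0.147), and those of Rrm1 and Tk1 without any 1 array other than cirrhotic array 2 (0.0782 to 0.151 and 0.0616 to 0.136). Mcm5, Rrm1 and Tk1 also missed the threshold with no filter on dim probe sets (0.0842, 0.0758 and 0.0681) and with quantile normalization (0.0825, 0.0611 and 0.0549).

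**Figure D2:**
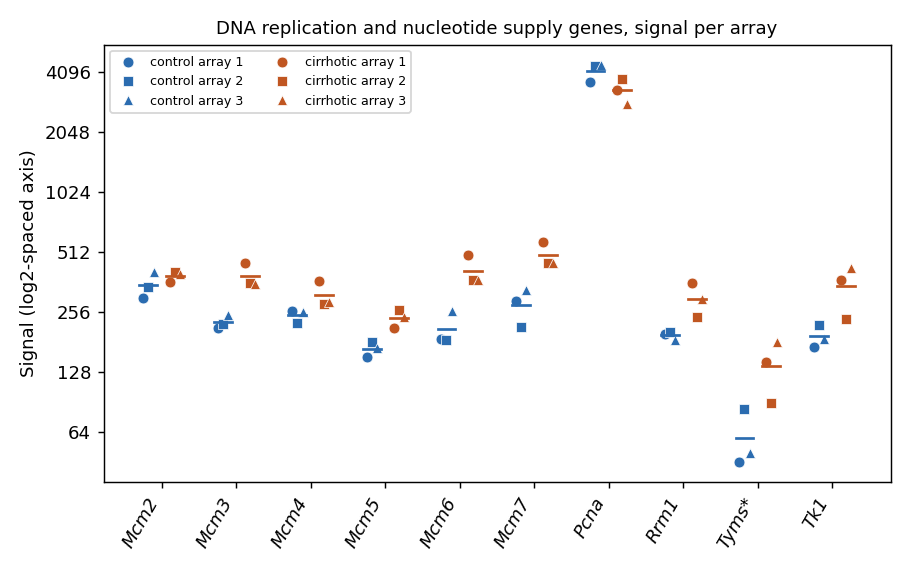
Signal of the 10 replication and nucleotide supply genes on each array (log2-spaced vertical axis), with control arrays in blue, cirrhotic arrays in orange and short bars at group means. An asterisk marks Tyms, which was too dim to be tested. Mcm3, Mcm6 and Mcm7 show 3 cirrhotic points above all control points, and Pcna shows the opposite tendency with overlap.

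E2F factors are known to bind upstream of replication genes, so promoter windows were read for the member genes. RefSeq windows of the GRCr8 assembly, from 250 bases before to 50 bases after the gene start, were matched by symbol for 36 of the 44 genes. They include Cdk2, Nusap1, Prc1, Bub1 and Btg2, which had no probe set. The letters TTTCCCGC, TTTCGCGC, TTTGCCGC and TTTGGCGC, as spellings of the E2F motif on both strands, occurred in 6 of 9 windows of the replication group (Mcm2, Mcm3, Mcm5, Mcm6, Mcm7 and Tyms). They occurred in 1 of 15 windows of the G2 and mitosis group (Cdk1), in none of the other members' windows and in 2.25% of the 27457 windows of all genes. Of the replication genes that rose, Mcm3, Mcm5, Mcm6 and Mcm7 held matches and Rrm1 and Tk1 held none, while Mcm2 held 2 and did not pass. A link of the matches to the rises was not tested. The Mcm6 window (chr13:42404303-42404602, minus strand) and the Mcm7 window (chr12:22163129-22163428, minus strand) are shown as examples among the genes that rose, and both hold 2 matches, printed in capitals. In Mcm6 the matches overlap each other.
Mcm6: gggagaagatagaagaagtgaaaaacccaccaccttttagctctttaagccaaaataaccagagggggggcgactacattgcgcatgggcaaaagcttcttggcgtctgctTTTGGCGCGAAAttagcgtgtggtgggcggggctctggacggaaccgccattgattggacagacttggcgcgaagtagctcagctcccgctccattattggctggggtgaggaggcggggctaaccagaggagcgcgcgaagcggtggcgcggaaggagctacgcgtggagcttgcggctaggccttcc
Mcm7: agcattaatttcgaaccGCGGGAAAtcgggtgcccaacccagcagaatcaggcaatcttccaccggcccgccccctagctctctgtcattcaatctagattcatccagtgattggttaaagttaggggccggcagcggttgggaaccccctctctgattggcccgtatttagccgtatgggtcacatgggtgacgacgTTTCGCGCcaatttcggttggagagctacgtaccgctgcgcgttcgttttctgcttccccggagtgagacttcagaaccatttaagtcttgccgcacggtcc
The matches start 139 and 135 bases before the gene start in Mcm6, and 233 and 52 bases before it in Mcm7. A match of letters describes the window and does not show that a factor was bound.

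In the G2 and mitosis group, 6 of 10 tested members rose and none fell, against 12.3% and 13.2% of all tested probe sets. All 10 differences were positive (median 1.13). Ccnb2 and Top2a entered the tested set through their cirrhotic signals alone. Cdk1 on control arrays 1 and 2 (109 and 121) and Mki67 on control array 1 (89.6) also lay under the threshold near 127. The control mean of Mki67 was 122. Without the filter 6 of the 14 members with a probe set rose (42.9%), against 8.06% of all probe sets. Cdk1 read 109, 121 and 154 in control and 387, 260.5 and 565 in cirrhotic arrays (difference 1.49, SE 0.27, adjusted p = 0.00675). Its partner Ccnb2 read 93.3, 119.8 and 115 in control and 452, 195 and 556 in cirrhotic arrays (1.62, SE 0.35, adjusted p = 0.0127). For both genes every cirrhotic signal lay above every control signal, but cirrhotic array 2 came much nearer to the controls than arrays 1 and 3. Ccnb1, the other B-type cyclin, read 115, 161 and 148 in control and 396, 174 and 682 in cirrhotic arrays, and its difference of 1.28 (SE 0.42, adjusted p = 0.0586) did not pass. Its dimmer probe set showed the same order of arrays, with a difference of 1.34.

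Chromosome and proliferation markers also had their lowest cirrhotic signal on array 2. Top2a, the topoisomerase that untangles replicated chromosomes, read 64.2, 83.5 and 90.0 in control and 298, 180.3 and 259.9 in cirrhotic arrays (difference 1.44, SE 0.22, adjusted p = 0.00363). Mki67, which encodes the proliferation antigen Ki-67, read 89.6, 131 and 145 in control and 415, 179 and 479 in cirrhotic arrays (1.35, SE 0.35, adjusted p = 0.0264). Cdc20, the activator of the anaphase-promoting complex, read 193, 169 and 154 in control and 383, 218 and 528 in cirrhotic arrays (0.98, SE 0.29, adjusted p = 0.0402). A further Cdc20 probe set rose by 1.23 (SE 0.35, adjusted p = 0.0375), and the other 3, all too dim to be tested, had differences of -0.20, 0.25 and -0.11.

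Cks2, a small subunit bound to mitotic CDKs, rose with another order of arrays. It read 939.7, 1307 and 1339 in control and 1837, 3183 and 1957 in cirrhotic arrays (difference 0.92, SE 0.24, adjusted p = 0.0249). It was the only member of the group with its highest cirrhotic signal on array 2.

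The other tested mitosis genes had positive differences that did not pass. Ube2c, the ubiquitin-conjugating enzyme of the anaphase-promoting complex, read 270.2, 260.5 and 203 in control and 479, 283 and 581 in cirrhotic arrays (0.78, SE 0.26, adjusted p = 0.0586). Birc5, the survivin gene of the chromosomal passenger complex, read 158, 192 and 121 in control and 281, 164 and 354 in cirrhotic arrays (0.67, SE 0.28, adjusted p = 0.121). The groups did not overlap for Ube2c, and for Birc5 they overlapped through cirrhotic array 2. Plk1, a kinase of mitotic entry and spindle assembly, had a difference of 0.44 (SE 0.29, adjusted p = 0.306), with 116 on cirrhotic array 2, inside the control range of 93.4 to 149.9.

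The dim members of this group were Aurka and Aurkb, kinases of the spindle and of the chromosomal passenger complex, and the spindle checkpoint genes Bub1b and Mad2l1. Aurka, Aurkb and Mad2l1 overlapped between the groups through cirrhotic array 2 and had differences of 0.61, 0.32 and 0.44. Bub1b read 7.7, 10.6 and 12.9 in control and 76.7, 33.1 and 33.5 in cirrhotic arrays. All 3 control signals lay under the highest bacterial control probe set of their array, and set at that level the signal was at least 1.06-fold higher in cirrhotic arrays, computed on signal + 16. The cirrhotic array 3 signal of 33.5 was itself under its array's highest bacterial signal of 40.3. Without the filter its difference of 1.21 had an adjusted p of 0.0235.

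**Figure D3:**
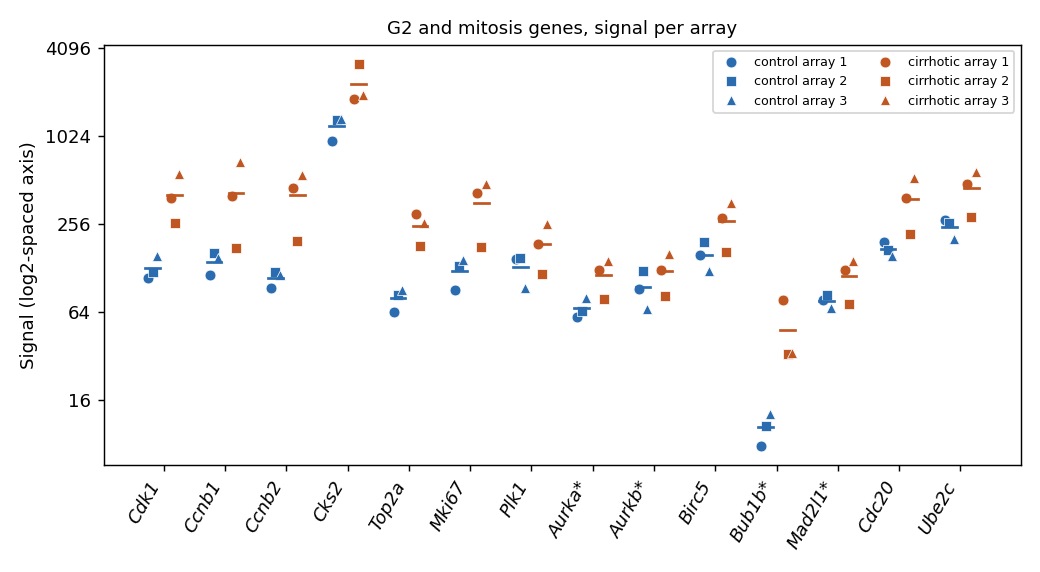
Signal of the 14 G2 and mitosis genes on each array (log2-spaced vertical axis), control in blue, cirrhotic in orange, marker shapes giving the array number and short bars the group means. Asterisks mark the 4 genes too dim to be tested. The square of cirrhotic array 2 is lowest of its group in 13 genes, and Cks2 is the exception.

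The cirrhotic arrays thus lay far apart in the mitosis genes. In 13 of the 14 genes cirrhotic array 2 had the lowest cirrhotic signal and in 11 array 3 had the highest, against 35.8% and 35.1% of all tested probe sets. The highest cirrhotic signal was 1.65 to 3.93 times the lowest, with a median of 2.17, while the median was 1.32 for the replication genes and 1.31 over all tested probe sets. Among the control arrays the median was 1.41 for the mitosis genes and 1.26 over all tested probe sets. Relative to each gene's control mean, the median of the 14 genes was 1.01, 0.30 and 1.16 on cirrhotic arrays 1, 2 and 3, whereas that of the 10 replication genes was 0.86, 0.39 and 0.58.

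The calls of the mitosis genes moved with these arrays. Without cirrhotic array 2, Ccnb1, Ube2c and Birc5 passed too (adjusted p = 0.00396, 0.007 and 0.022). The call of Ccnb2 ended without cirrhotic array 1 (0.0576), that of Cks2 without any 1 of the control arrays (0.0532 to 0.0802), and those of Mki67 and Cdc20 without any 1 array other than cirrhotic array 2 (0.057 to 0.101 and 0.0729 to 0.125), while Cdc20 also missed the threshold with no filter (0.0659).

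**Figure D4:**
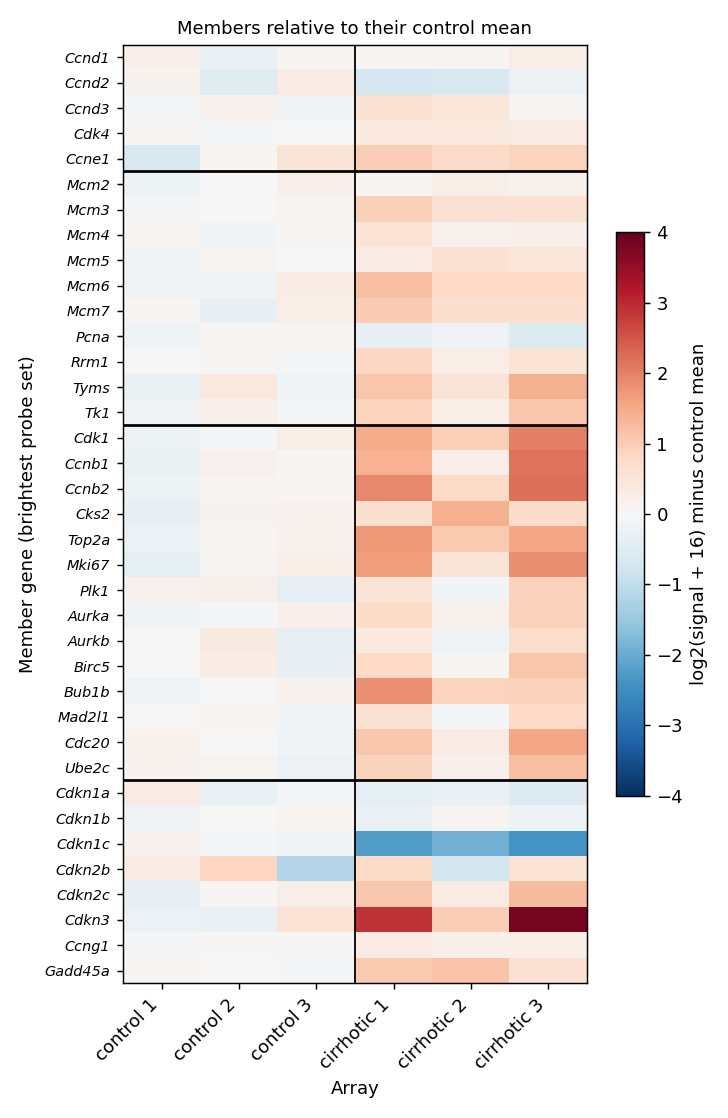
Each of the 37 genes (rows, in the order G1, replication, G2 and mitosis, growth arrest, parted by black lines) on each array (columns), as log2(signal + 16) minus the gene's control mean, red for higher and blue for lower. In the G2 and mitosis block, cirrhotic array 2 is paler than arrays 1 and 3, with group medians of 0.30 against 1.01 and 1.16, and Cdkn1c is the only strongly blue row.

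Markers of other liver cells differed between the arrays as well. Of 12 hepatocyte markers 11 had a probe set, and all 11 had their highest cirrhotic signal on array 3 and 9 their lowest on array 2, the same order as most mitosis genes. Their summed signal was 46107, 35929 and 66372 on cirrhotic arrays 1 to 3 and between 28883 and 40788 on the control arrays. Of the 11 markers 4 rose, where 12.3% of all tested probe sets rose and 13.2% fell. Alb alone read 11422 to 13925 on the cirrhotic arrays and did not pass (adjusted p = 0.142). The stellate cell and myofibroblast markers (12 of 12 with a probe set) summed to 16967 to 29250 in cirrhotic and 4434 to 5225 in control arrays, lowest on cirrhotic array 2, and 8 of 10 tested rose. Sums of 8 of 10 cholangiocyte, 9 of 12 macrophage and 10 of 12 T and NK cell markers ran from 5125 to 12712, from 5655 to 12190 and from 3858 to 6454 in cirrhotic arrays, and all 3 were lowest on cirrhotic array 3. In control arrays they ran from 729 to 1468, from 4359 to 8863 and from 3507 to 4512. Of tested cholangiocyte markers 6 of 7 rose, and of tested T and NK cell markers 5 of 8. The macrophage and T and NK cell sums pool genes of both directions. Of 9 macrophage markers 2 rose (Laptm5 by 1.40, Lyz2 by 1.32) and Clec4f fell by 3.22. C1qa, C1qb and C1qc (-1.01, -0.85 and -0.90) did not pass, nor did Cd68, Csf1r and Cd14, which had positive differences. Cd8a, Nkg7 and Prf1 had negative differences that did not pass.

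The endothelial markers were present on every array, with a summed signal of 47497 to 52274 in control and 22683 to 25483 in cirrhotic arrays. These sums cover 11 of 12 genes, and all 11 fell, against 13.2% of all tested probe sets. No marker of any of these lists was at 0. The part of these other cells in the cell cycle results was not tested.

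For mitosis genes, a CHR element (TTTGAA) together with CCAAT boxes upstream of the gene is the known arrangement bound by the DREAM, MuvB and NF-Y factors. Both motifs, searched on both strands, occurred in 10 of the 15 G2 and mitosis windows, in 1 of 8 windows of the growth arrest group (Cdkn3), in none of the 9 replication and 4 G1 windows, and in 7.25% of all windows. Singly, TTTGAA occurred in 12 of the 15 windows and in 18.1% of all windows, and CCAAT in 11 of 15 and in 37.7%. The windows of Ccnb2 (chr8:79981609-79981908, minus strand) and Cdc20 (chr5:137255750-137256049, minus strand) are shown for the mitosis genes that rose. That of Cdkn3 (chr15:22502136-22502435, plus strand, the first of 2 windows listed) is shown because this gene of the growth arrest group rose with the array order of the mitosis genes. Both motifs were also found in Cdk1, Cks2, Top2a and Mki67, which rose, and in Plk1 and Birc5, which did not pass. The windows of Nusap1 and Prc1 held both as well, but these genes had no probe set. Cdkn2c, which rose with that array order, held neither motif, and Ccnb1 held CCAAT without TTTGAA. A link of the motifs to the differences between arrays was not tested. Capitals mark both motifs.
Ccnb2: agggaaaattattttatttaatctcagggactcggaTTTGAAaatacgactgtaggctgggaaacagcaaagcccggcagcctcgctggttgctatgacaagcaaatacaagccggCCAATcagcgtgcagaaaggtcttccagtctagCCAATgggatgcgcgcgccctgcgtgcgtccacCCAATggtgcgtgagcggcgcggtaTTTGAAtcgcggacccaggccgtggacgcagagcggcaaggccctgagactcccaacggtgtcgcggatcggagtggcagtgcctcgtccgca
Cdc20: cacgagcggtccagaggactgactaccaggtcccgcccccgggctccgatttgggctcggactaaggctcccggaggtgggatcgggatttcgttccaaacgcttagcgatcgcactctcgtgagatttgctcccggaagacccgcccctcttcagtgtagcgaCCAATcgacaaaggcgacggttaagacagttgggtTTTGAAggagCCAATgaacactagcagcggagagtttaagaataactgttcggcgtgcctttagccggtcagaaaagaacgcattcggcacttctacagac
Cdkn3: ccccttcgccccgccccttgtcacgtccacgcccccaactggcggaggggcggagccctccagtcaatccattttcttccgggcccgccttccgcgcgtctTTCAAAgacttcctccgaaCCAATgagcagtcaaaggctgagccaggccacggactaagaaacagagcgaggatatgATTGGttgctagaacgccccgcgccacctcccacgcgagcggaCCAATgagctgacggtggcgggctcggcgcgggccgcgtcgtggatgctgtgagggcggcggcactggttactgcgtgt
In Ccnb2 the matches to TTTGAA start 214 and 43 bases before the gene start, and CCAAT starts 134, 101 and 68 bases before it. In Cdc20 the single TTTGAA starts 51 bases before the gene start, between CCAAT boxes at 86 and 41 bases. In Cdkn3 the element lies in reverse orientation, 149 bases before the start.

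The CDK inhibitors and growth arrest genes moved in both directions, with 3 of 7 tested members higher and 1 lower (median difference 0.27). Of all tested probe sets 12.3% were higher and 13.2% lower, so the share of lower members (14.3%) lay near that of the whole array. Without the filter 2 of 8 members were higher and 1 lower, against 8.06% and 7.42% of all probe sets. Within the Cip/Kip family, whose members bind cyclin and CDK complexes, Cdkn1c read 1058, 931 and 880.2 in control and 189, 241 and 168 in cirrhotic arrays (difference -2.19, SE 0.16, adjusted p = 0.000442). The groups lay far apart and the arrays within each group close together, and leaving out any 1 array gave differences between -2.32 and -2.08. Cdkn1a, the p53 target p21, read 775, 499 and 598 in control and 471, 503 and 420.3 in cirrhotic arrays (-0.39, SE 0.18, adjusted p = 0.141), with overlap through control array 2. A dimmer Cdkn1a probe set, not bright enough to be tested, read 97.7, 60.8 and 47.3 in control and 118, 103 and 62.7 in cirrhotic arrays and so had a difference of the opposite sign, 0.39. Cdkn1b, the inhibitor p27, read 1242, 1399 and 1498 in control and 1120.3, 1481 and 1189 in cirrhotic arrays (-0.13, SE 0.15, adjusted p = 0.548), with overlapping groups. Its dimmer probe set had a difference of -0.61 and was not tested. Of the 3 family members, only Cdkn1c therefore passed.

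The INK4 family binds Cdk4 and its relative Cdk6 directly. Cdkn2c, the inhibitor p18, read 312, 425 and 475 in control and 850.5, 509 and 986 in cirrhotic arrays (difference 0.89, SE 0.26, adjusted p = 0.0408). The groups were close between control array 3 and cirrhotic array 2, and the order of the cirrhotic arrays was that of the mitosis genes. Cdkn2b, the inhibitor p15, was too dim to be tested and scattered widely, with 47.0, 78.9 and 7.2 in control and 71.2, 15.3 and 59.7 in cirrhotic arrays.

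Cdkn3 is a phosphatase that acts on CDKs and is known to be made mainly in G2 and mitosis, so its name places it with the inhibitors and its usual timing with the mitosis genes. It read 35.9, 34.3 and 72.9 in control and 437, 106 and 857 in cirrhotic arrays (difference 2.57, SE 0.64, adjusted p = 0.0231). On control arrays 1 and 2 its signal lay under the highest bacterial control signal of the array (49.9 and 43.9), and it passed the filter through its cirrhotic signals, so the control side of the difference rests on values near background. Cirrhotic array 3 read 8.06 times cirrhotic array 2, the widest spread within the cirrhotic group among the 37 genes, and the difference was 3.35 without array 2 and 1.94 without array 3.

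The growth arrest genes that follow DNA damage or stress were Gadd45a and Ccng1. Gadd45a, a stress protein that binds Pcna and Cdk1, read 617, 590.1 and 563 in control and 1238, 1321 and 881 in cirrhotic arrays (difference 0.92, SE 0.17, adjusted p = 0.00755). Here cirrhotic array 3 was the lowest of its group and array 2 the highest, unlike in the mitosis genes. Ccng1, a cyclin induced by p53, read 418, 456 and 461 in control and 558, 514 and 542 in cirrhotic arrays, and its difference of 0.27 (SE 0.12, adjusted p = 0.136) did not pass although the groups did not overlap.

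In this group the calls of Cdkn1c and Gadd45a were kept with any 1 array left out. That of Cdkn2c ended without any 1 array other than cirrhotic array 2 (adjusted p between 0.07 and 0.132), with no filter (0.0612) and with median centring (0.0515), and that of Cdkn3 without any 1 control array or cirrhotic array 1 (between 0.0504 and 0.0877).

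**Figure D5:**
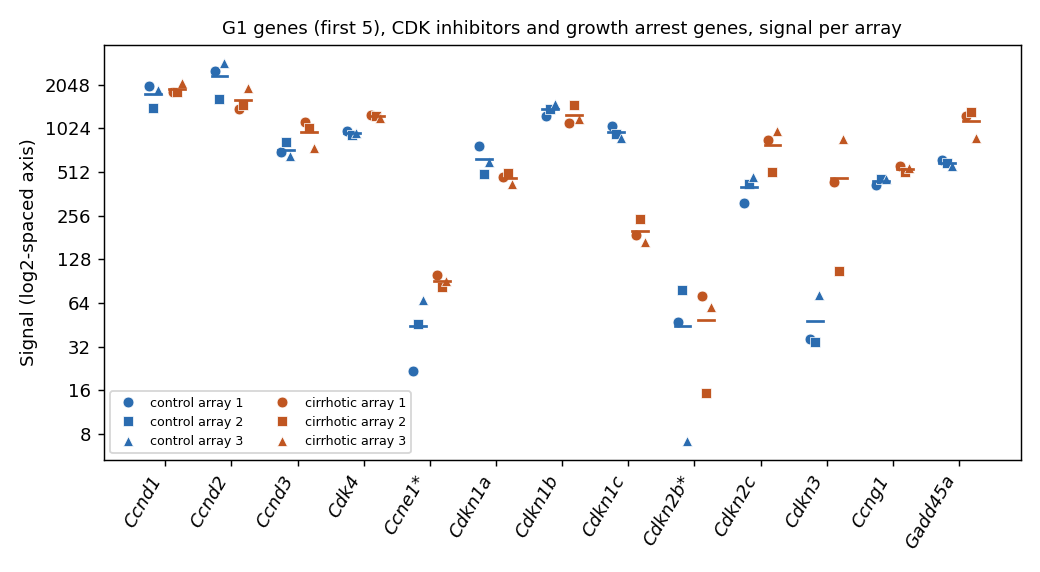
Signal of the 5 G1 genes and the 8 CDK inhibitors and growth arrest genes on each array (log2-spaced vertical axis), control in blue, cirrhotic in orange, with short bars at group means. Asterisks mark Ccne1 and Cdkn2b, too dim to be tested. Cdkn1c drops from about 880 to 1058 in control to 168 to 241 in cirrhotic arrays, and Cdkn3 spreads from 106 to 857 among the cirrhotic arrays.

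Further genes of the same pathway, from lists of other members drawn up for this comparison, were counted on their brightest probe sets. Of 59 genes listed for G1/S and replication, 37 had a probe set and 26 were bright enough to be tested. Of these 26, 4 rose and 1 fell (median difference 0.07), a share of higher genes near the 12.3% of all tested probe sets. Rfc4 and Rfc2, subunits of the complex that loads Pcna, rose by 0.99 (SE 0.21, adjusted p = 0.0118) and 0.49 (SE 0.15, adjusted p = 0.0425). All control signals of Rfc4 lay under the filter threshold, and it passed the filter through its cirrhotic signals. Tfdp1, the partner of E2F factors, rose by 0.71 (SE 0.15, adjusted p = 0.0138), and Rpa3, a subunit of the single-strand binding protein, by 0.85 (SE 0.22, adjusted p = 0.0262). Orc4, a subunit of the origin recognition complex, fell by 0.67 (SE 0.13, adjusted p = 0.0101). Most of the tested genes of this list, 21 of 26, did not pass.

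Of 55 further genes listed for G2 and mitosis, 31 had a probe set and 16 were bright enough to be tested. Of these 16, 7 rose and none fell (median difference 0.79), beside 12.3% higher and 13.2% lower of all tested probe sets. Spc24, a kinetochore protein, rose by 2.02 (SE 0.46, adjusted p = 0.0166), and Stmn1, which destabilises microtubules, by 1.54 (SE 0.32, adjusted p = 0.0106). The chromosome-binding kinesin gene Kif22 rose by 1.39 (SE 0.33, adjusted p = 0.0186), the lamin gene Lmnb1 by 1.19 (SE 0.25, adjusted p = 0.0117) and the cytokinesis gene Racgap1 by 0.85 (SE 0.20, adjusted p = 0.02). Spc24 and Kif22 had all control signals under the filter threshold and passed the filter through their cirrhotic signals, so the count of 7 is a description. As in the members, cirrhotic array 2 was lowest of its group in 26 of the 31 genes with a probe set.

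Of 28 further p53 targets and growth arrest genes listed, 18 had a probe set and 15 were bright enough to be tested. Of these 15, 2 rose and 3 fell (median difference 0.03), beside 12.3% higher and 13.2% lower of all tested probe sets. Plk2, a stress-induced kinase, and Gadd45g, a relative of Gadd45a, fell by 0.70 (SE 0.08, adjusted p = 0.00131) and 0.77 (SE 0.11, adjusted p = 0.00257), and the antiproliferative gene Tob2 fell by 0.54 (SE 0.14, adjusted p = 0.0263). The p53 targets Phlda3 and Perp rose by 0.69 (SE 0.16, adjusted p = 0.0179) and 1.05 (SE 0.27, adjusted p = 0.0252). All control signals of Perp lay under the filter threshold, and it passed the filter through its cirrhotic signals. Gadd45b, the remaining member of the Gadd45 family, missed the threshold at -0.80 (SE 0.27, adjusted p = 0.063), while Gadd45a passed as higher and Gadd45g as lower.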

How the data were processed

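Signals of 3 control and 3 cirrhotic arrays of rat liver endothelial cells were analysed. The authors deposited intensity values on a linear scale, a single value for each probe set on each Affymetrix rat 230A array, per the labels; the summary software is not given in the sources used here. The trimmed mean was between 399.2 and 399.6 on every array, so values were used as deposited, and a change in total RNA per cell cannot be seen. Probe sets were named from the platform annotation, with 12783 of 15866 having 1 symbol.

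Values were turned into log2(signal + 16), 16 being the 10th percentile of all values. The 57 control probe sets and the dimmest 40% were left out, leaving 9519. The comparison used limma 3.58.1 under R 4.3.3 (lmFit, eBayes with a variance trend, two-sided, Benjamini-Hochberg over all tested probe sets), which was tested on simulated data. Members that passed and all CDK inhibitors are given per array, with the 3 brightest non-passing members of the other groups, and the 5 passing genes with the smallest p of each further list; Ccne1, Tyms, Bub1b and Plk1 values were added after they were seen. The members, lists and tests were chosen with earlier results of these data known, and the motifs and the bacterial bound after seeing the data. Alternatives covered scaling, pseudocount, filter, variance model, array weights, probe set choice, a block for array number and each array left out. The highest of 27 bacterial control probe sets read 21.7 to 49.9, and this background and the number of arrays limit the precision. No 2 arrays shared more than 47 identical values.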

Additional observations from a re-analysis of the deposited data

How the results depend on the processing

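The single fall, that of Cdkn1c, was kept under every alternative run. Of the 30 tested genes, only Ccnd1, which had not passed, changed sign. With 1 array left out its differences ran from -0.027 (without control array 2) to 0.23 (without control array 1). On its probe set with the smallest p the difference was 0.37. The count of 16 higher genes stayed between 11 and 22 under the other settings, except that leaving out 60% of probe sets, which kept only 17 genes, gave 7 higher genes and a median difference of 0.37. A pseudocount of 126, which shrinks differences of dim genes, gave a median of 0.49. Array weights called 3772 probe sets and 2 lower genes, the second being Ccnd2; the cause was not tested. With 1 array left out, calls over all probe sets ranged from 1341 to 2472, higher genes from 6 to 17, lower genes from 1 to 2 and the median from 0.56 to 0.74. Median centring moved the split of all calls from 1167 higher and 1254 lower to 925 and 1480, with 12 member genes higher and 1 lower.

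Arrays with the same number did not deviate together (correlations of 0.02, -0.01 and -0.16 for numbers 1, 2 and 3). With 3 arrays per group this cannot exclude a pairing, and the labels do not say whether the numbers pair the arrays. With array number as a replicate block, 11 members rose and 1 fell; Cdk4, Mcm5, Rrm1, Tk1 and Cdc20 no longer passed (adjusted p between 0.0502 and 0.105).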
